A study of Mus musculus with 6 samples.

Results

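The chains of system Xc- and the enzymes that make and regenerate glutathione were examined as 6 genes, Slc7a11, Slc3a2, Gclc, Gclm, Gss and Gsr, chosen by name from the 21686 genes of the count table. All 6 were listed, and all 6 passed the filter on low counts in each comparison. RNA was sequenced from MC3T3-E1 Subclone 14 cells, a mouse line of osteoblast precursors that is 1 subclone, in 6 libraries of 3 groups. The 2 control libraries came from cells given 100 µL of PBS, and the 2 dexamethasone libraries from cells given 10 µM of this synthetic glucocorticoid. The 2 dexamethasone + EPC-EVs libraries came from cells given 10 µM dexamethasone together with 100 µg of extracellular vesicles (exosomes) secreted by endothelial progenitor cells (EPCs) of mouse bone marrow. Every group was cultured for 72 hours. Where the design text of the series differs, naming fibroblasts and a shorter time, the labels of the samples were used. The comparisons address what dexamethasone does to these cells, and what the vesicles change in its presence.

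System Xc- is a membrane exchanger that takes up cystine and releases glutamate. Inside the cell cystine is reduced to cysteine, which glutamate-cysteine ligase joins to glutamate, and glutathione synthetase then adds glycine to make glutathione, the main thiol antioxidant of the cell. Glutathione that has been oxidised while detoxifying peroxides is returned to its reduced form by glutathione reductase, and a shortage of cystine or glutathione is known to make cells prone to death by lipid peroxidation.

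The total counts were 6126888 and 5146760 in control, 6583735 and 6575094 in dexamethasone, and 12864009 and 13182014 in dexamethasone + EPC-EVs. A count of 0 at these depths allows up to 3 counts, which is 0.583 CPM in the smallest library and 0.228 CPM in the largest, for counting error only. CPM are counts relative to the library total after TMM scaling over the 6 libraries, unless another scale is named. Replicates were further apart than counting error alone gives: the chi-square divided by its degrees of freedom came to 17.75 for control, 7.36 for dexamethasone and 21.7 where vesicles were added. The study calls the libraries of a group biological replicates, but no label says that they came from separate cultures, so the p-values measure the spread between these libraries, which may be technical.

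The dexamethasone + EPC-EVs libraries stood apart in composition as well as depth. Mitochondrially encoded genes took 7.46% and 8.62% of the counts in control, 5.55% and 5.78% in dexamethasone, but 0.465% and 0.727% in dexamethasone + EPC-EVs. The single gene Gm26917 took 5.88% and 6.69% of the counts in dexamethasone + EPC-EVs and at most 1.14% in any other library. No label gives a library batch, so a batch shared by a group and its treatment cannot be told apart. With the mitochondrially encoded genes left out, the members called were as many as with them in each comparison, and the part of the other differences in the members' values was not tested.

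Of 9 osteoblast markers, all 9 were listed, and Spp1, Col1a1, Col1a2, Sparc and Runx2 were expressed in every library. Alpl, Bglap and Ibsp, which mark mature osteoblasts, were low, with at most 3.19, 6.57 and 2.39 CPM, and Alpl and Bglap had no counts in dexamethasone replicate 2. Sp7 ranged from 1.19 to 6.26 CPM but reached 20.6 CPM in dexamethasone + EPC-EVs replicate 1. The summed level of the 9 markers, in CPM of the library total without TMM scaling as for all sums here, was 15860 and 16970 in control, 17740 and 18030 in dexamethasone, and 28690 and 22600 in dexamethasone + EPC-EVs. Within it, with vesicles against dexamethasone, Spp1 fell by 1.06 on the log2 scale (edgeR adjusted p = 0.000155) while Col1a1, Col1a2 and Sparc rose by 1.51, 1.89 and 1.25. Per length Spp1 stayed the most abundant, at a mean of 3109 FPKM with vesicles against 1165 for Col1a1. Of 9 endothelial and EPC markers 7 were listed, and Cd34 alone made 412, 366, 374 and 382 of a summed 417, 369.9, 377 and 385 in the control and dexamethasone libraries, and 283 and 231 of 285 and 234 in dexamethasone + EPC-EVs. Vwf ranged from 1.41 to 4.56 CPM over the libraries. The highest library had 1.65 CPM for Pecam1, 1.59 for Tek, 0.471 for Emcn, 0.398 for Prom1 and 0.147 for Cdh5. Of 6 leukocyte markers 4 were listed, with a sum of 12.1 and 11.5 in control, 17.9 and 19.0 in dexamethasone, and 18.7 and 52.3 in dexamethasone + EPC-EVs. Csf1r made 35.7 of the sum in dexamethasone + EPC-EVs replicate 2, and per length Lyz2 led the list in every library, at 11.4 FPKM against 7.31 for Csf1r in that one. Of 4 adipocyte markers 3 were listed, led by Fabp4, and their sum was 7.35, 2.72, 10.0 and 2.28 in the control and dexamethasone libraries and 0.6996 and 0.152 in dexamethasone + EPC-EVs.

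With dexamethasone alone, 5 of the 6 genes had both libraries above both control libraries, Gss being the exception, where 22.8% of all genes tested did so. None was called in this comparison: edgeR's quasi-likelihood test called 0 of the 6 higher and 0 lower at an adjusted p under 0.05, against 0.0155% and 0.0388% of 12879 genes. An unadjusted p under 0.05 was reached by 3 of the 6, Slc7a11, Gclc and Gclm, against 10.9% of all genes, and DESeq2 called 1, Gclc, while limma on the FPKM called 0. No member passed the threshold of the study's methods for genes, an unadjusted p under 0.05 with a log2 fold change beyond 1.5, which 1.41% of all genes passed. This threshold was applied here, in each comparison, to the p-values of edgeR, whereas the study's methods name the DESeq package. For mRNAs the study set a lower cut, beyond 1, which was not applied here. Slc7a11 at 1.19 and Gclm at 1.02 lie beyond it, and the share of all genes that do was not counted. The median log2 fold change of the 6 was 0.64, against 0.007 over all genes tested.

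When the vesicles were added to dexamethasone, 3 of the 6 were called by edgeR, which were Slc3a2 higher and Slc7a11 and Gclm lower. Over 13556 genes, 20.9% were called higher and 18.9% lower, so 1 and 2 of 6 lay near the background. Both libraries lay above both dexamethasone libraries for 1 member, Slc3a2, and below them for 3, Slc7a11, Gclc and Gclm, against 38.5% and 34.0% of all genes. The threshold of the study's methods was passed by 1 member, Slc7a11, and by 14.2% of all genes. The median of the 6 log2 fold changes was -0.37, against 0.012 over all genes.

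Between dexamethasone + EPC-EVs and control, edgeR called Slc3a2 higher and no other member. It was also the only member with an unadjusted p under 0.05, which 46.7% of all genes reached, and DESeq2 and limma each called 1. Among 13511 genes 19.1% were called higher and 17.2% lower. Both libraries were above both control libraries for 3 members, Slc3a2, Gss and Gsr, against 39.1% of all genes. No member passed the threshold of the study's methods, which 20.7% of all genes passed. The 3 comparisons use the same 6 libraries in pairs of groups, so that their fold changes are not independent of each other.

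**Figure D1:**
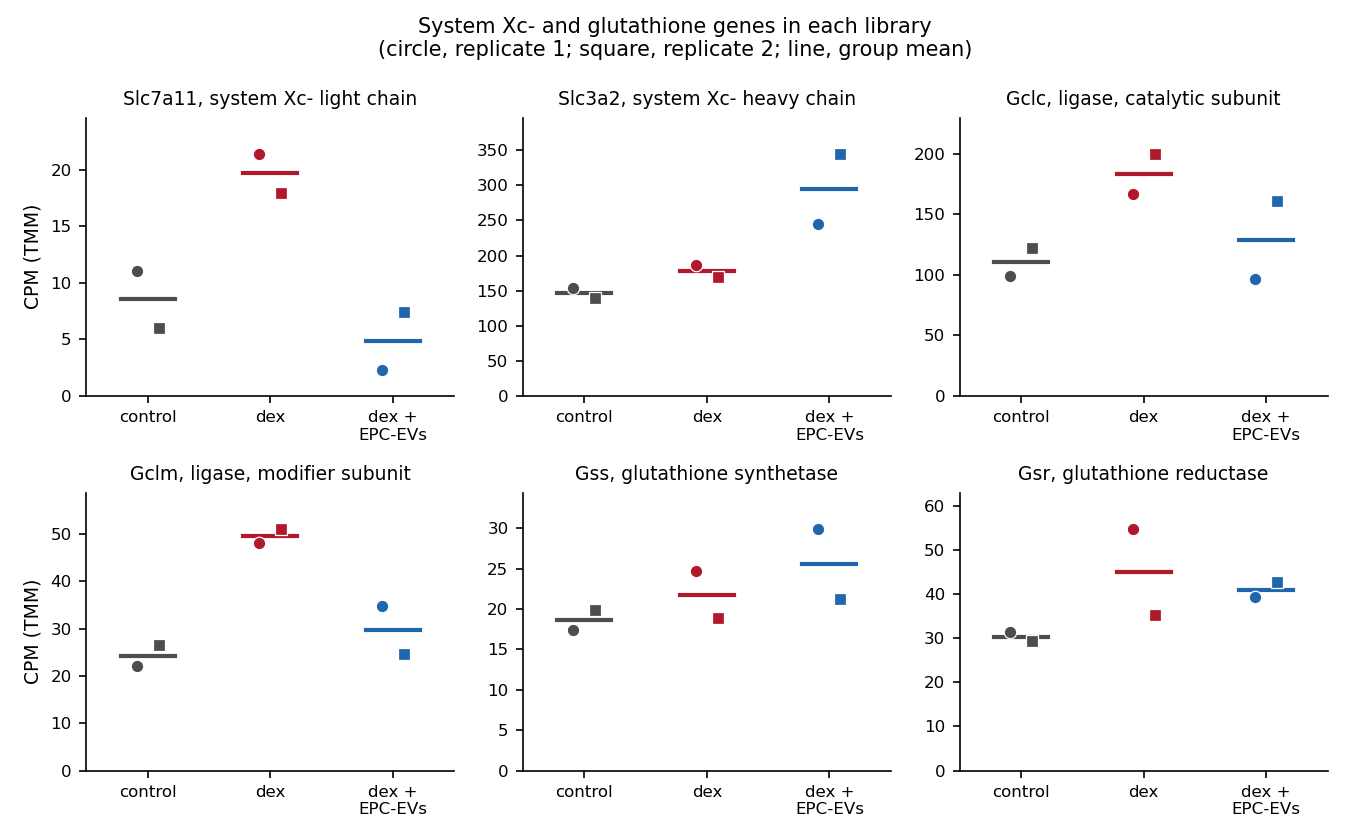
CPM after TMM scaling (vertical axes, each starting at 0) of the 6 genes in every library of the control, dexamethasone (dex) and dexamethasone + EPC-EVs groups, with a circle for replicate 1, a square for replicate 2 and a line at the mean of the group. Slc7a11, Gclc, Gclm and Gsr had their highest library in dexamethasone, whereas Slc3a2 and Gss had theirs in dexamethasone + EPC-EVs.

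Slc7a11 (ENSMUSG00000027737.10, chr3:49892526-50443614, minus strand, GRCm38) encodes the light chain xCT, the part of system Xc- that binds and carries cystine and glutamate. Its counts were 68 and 30 in control, 147 and 122 in dexamethasone, and 29 and 94 in dexamethasone + EPC-EVs. Scaled, these were 11.1 and 5.97 CPM, 21.4 and 18.0 CPM, and 2.30 and 7.38 CPM. The dexamethasone libraries were the highest of the 6 and did not overlap either other group, while the control and dexamethasone + EPC-EVs libraries overlapped. The log2 fold change of dexamethasone against control was 1.19 (standard error 0.431, 95% confidence interval 0.24 to 2.15, edgeR adjusted p = 0.384), and 3.38% of the genes tested had a larger rise. Without control replicate 1, the higher control library, it was 1.72 and called (edgeR adjusted p = 0.00954), in a fit that called 2200 genes against 7 with all 4 libraries. It was not called without any other library.

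Slc7a11 was lower with the vesicles than with dexamethasone alone, by a log2 fold change of -2.07 (standard error 0.48, 95% confidence interval -3.12 to -1.01, edgeR adjusted p = 0.00523), and 8.07% of the genes tested had a larger change in either direction. The replicates with vesicles were far apart, so that the value was -3.12 without dexamethasone + EPC-EVs replicate 2 and -1.45 without replicate 1, both called by edgeR. The call was lost without dexamethasone replicate 1, at -1.92 (edgeR adjusted p = 0.0676). Once the dependence on GC content and length was removed by a loess trend, its log2 fold change was -1.31 (edgeR adjusted p = 0.0464). Against control, dexamethasone + EPC-EVs gave -0.87 (95% confidence interval -2.40 to 0.67, edgeR adjusted p = 0.343), an interval that holds both a large fall and a modest rise. It was -1.92 when replicate 2 with vesicles was left out, -0.25 when replicate 1 was, and -0.01 with GC content and length corrected for, none of them called.

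Slc3a2 (ENSMUSG00000010095.13, chr19:8706882-8723369, minus strand) encodes the heavy chain 4F2hc, also called CD98, which brings xCT and several other light chains to the cell surface. Its levels were 154 and 139 CPM in control, 187 and 169.6 CPM in dexamethasone, and 245 and 345 CPM in dexamethasone + EPC-EVs. The 3 groups did not overlap, with control lowest and dexamethasone + EPC-EVs highest. Dexamethasone against control gave a log2 fold change of 0.275 (standard error 0.162, 95% confidence interval -0.08 to 0.63, edgeR adjusted p = 0.551), with 29.5% of tested genes rising more, and 0.03 with GC content and length corrected for. Slc3a2 rose with the vesicles by 0.68 on the log2 scale against dexamethasone (standard error 0.165, edgeR adjusted p = 0.00652), and 24.4% of tested genes rose more. Against control it rose by 0.96 (standard error 0.213, edgeR adjusted p = 0.00921), and 22.9% of tested genes rose more.

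The call of Slc3a2 against dexamethasone was lost without either dexamethasone library, while its log2 fold change stayed about as large, at 0.77 without replicate 1 (edgeR adjusted p = 0.0604) and 0.615 without replicate 2 (edgeR adjusted p = 0.113). Leaving out a vesicle library kept the call, at 0.43 without replicate 2 and 0.92 without replicate 1. Against control, leaving out the higher vesicle library, replicate 2, ended it (log2 fold change 0.71, edgeR adjusted p = 0.0816). Correcting for GC content and length ended both calls, with log2 fold changes of 0.33 against dexamethasone (edgeR adjusted p = 0.149) and 0.33 against control (edgeR adjusted p = 0.257).

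With all 4 libraries and no correction, both chains of system Xc- were called when vesicles were added, in opposite directions. Neither was called without dexamethasone replicate 1, and only Slc7a11 with GC content and length corrected for. Per length, the deposited FPKM of Slc3a2 was 54.8 and 92.05 times that of Slc7a11 in the control libraries, 34.4 and 37.25 times in dexamethasone, and 421 and 184 times in dexamethasone + EPC-EVs. Both ratios with vesicles exceeded every other ratio, and both with dexamethasone alone were below every other. The mean log2 ratio was 2.96 higher with vesicles than with dexamethasone alone, without correction for GC content and length, which brought both fold changes closer to 0. The ratios were planned as a description of each library, and no test was made of them.

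Gclc (ENSMUSG00000032350.9, chr9:77754535-77794485, plus strand) encodes the catalytic subunit of glutamate-cysteine ligase, the rate-limiting enzyme of glutathione synthesis. It had 99.2 and 122 CPM in control, 167 and 199.6 CPM in dexamethasone, and 96.2 and 161 CPM in dexamethasone + EPC-EVs. Dexamethasone libraries were the highest, and the libraries with vesicles spanned the whole range of control and came close to the lower dexamethasone library. Its log2 fold change with dexamethasone against control was 0.72 (standard error 0.184, 95% confidence interval 0.32 to 1.13, edgeR adjusted p = 0.279), and 9.78% of tested genes rose more. DESeq2 called it, at 0.72 (adjusted p = 0.0397), as did edgeR with no filter (adjusted p = 0.0188), without control replicate 1 (0.59, adjusted p = 0.00763) and without control replicate 2 (0.89, adjusted p = 0.000881). It was not called without dexamethasone replicate 1 (edgeR adjusted p = 1) or replicate 2 (edgeR adjusted p = 0.945), by limma (adjusted p = 0.364) or under any other alternative.

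For Gclc, vesicles against dexamethasone gave -0.56 on the log2 scale (standard error 0.210, 95% confidence interval -1.02 to -0.10), and its edgeR adjusted p of 0.0543 lay just past the threshold. It was called by DESeq2 (adjusted p = 0.0383), and by edgeR with other size factors (adjusted p = 0.0492), with library totals (adjusted p = 0.0351), with no filter (adjusted p = 0.00298) and under a stricter filter at 10 CPM (adjusted p = 0.0424). With the replicate number as a block it was -0.60 and called (edgeR adjusted p = 0.00568). It was not called by limma (adjusted p = 0.0797), nor by edgeR with GC content and length corrected for (adjusted p = 0.0904), with all 6 libraries in the fit (adjusted p = 0.0986), or without dexamethasone replicate 1 (adjusted p = 0.144) or replicate 2 (adjusted p = 0.341). Without dexamethasone + EPC-EVs replicate 2 it was -0.95 (edgeR adjusted p = 4.56e-06), and without replicate 1 it was -0.22 (edgeR adjusted p = 0.283), so this value rested largely on which of these libraries was kept. Against control it was 0.17 (95% confidence interval -0.44 to 0.78, edgeR adjusted p = 0.661), and -0.235 when replicate 2 with vesicles was left out.

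Gclm (ENSMUSG00000028124.15, chr3:122245557-122270732, plus strand) encodes the modifier subunit, which makes the ligase more active at the cell's concentrations of glutamate. Its levels were 22.15 and 26.5 CPM in control, 48.0 and 51.1 CPM in dexamethasone, and 34.8 and 24.6 CPM in dexamethasone + EPC-EVs. The dexamethasone libraries lay close together and far above the rest, and control and dexamethasone + EPC-EVs overlapped. Dexamethasone against control gave 1.02 on the log2 scale (standard error 0.253, 95% confidence interval 0.46 to 1.58, edgeR adjusted p = 0.279), a 2.03-fold ratio, with a larger rise in 4.915% of tested genes and a larger change in either direction in 8.73%. It was called by edgeR with no filter (adjusted p = 0.0404), without control replicate 1 (0.91, adjusted p = 0.0132) and without control replicate 2 (1.17, adjusted p = 0.0197). No other alternative called it, among them limma (adjusted p = 0.376) and edgeR without dexamethasone replicate 1 (1.065) or replicate 2 (0.98). DESeq2 gave 1.02 but no adjusted p, so it could not call Gclm.

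Gclm was lower in the libraries with vesicles than with dexamethasone alone, at -0.79 on the log2 scale (standard error 0.223, 95% confidence interval -1.27 to -0.30, edgeR adjusted p = 0.0154). The call was lost at values about as large without dexamethasone replicate 1 (-0.81, edgeR adjusted p = 0.0729) and replicate 2 (-0.74, edgeR adjusted p = 0.102), and at -0.54 without replicate 2 of the vesicle group (edgeR adjusted p = 0.101). It was also lost when GC content and length were corrected for, at -0.24 (edgeR adjusted p = 0.458). Against control Gclm gave 0.24 (95% confidence interval -0.45 to 0.93, edgeR adjusted p = 0.572), -0.02 when replicate 1 with vesicles was left out, and 0.96 with the trend removed, where it was called (edgeR adjusted p = 0.0398).

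The FPKM of the catalytic subunit was 7.48 and 7.71 times that of the modifier in control, 5.80 and 6.53 times in dexamethasone, and 4.62 and 10.9 times in dexamethasone + EPC-EVs. The ratios with dexamethasone were below those of control, and the libraries with vesicles held its lowest and its highest value. In these, Gclc was higher and Gclm lower in replicate 2 than in replicate 1.

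Gss (ENSMUSG00000027610.17, chr2:155563181-155592810, minus strand) encodes glutathione synthetase, which completes the molecule. It had 17.4 and 19.9 CPM in control, 24.75 and 18.8 CPM in dexamethasone, and 29.9 and 21.3 CPM in dexamethasone + EPC-EVs. Its groups lay close together, with dexamethasone overlapping both others. The log2 fold changes were 0.22 for dexamethasone against control (95% confidence interval -0.51 to 0.94), 0.19 for vesicles against dexamethasone (-0.41 to 0.78) and 0.41 for vesicles against control (-0.32 to 1.14), with edgeR adjusted p of 0.852, 0.62 and 0.35. Each interval holds no change as well as a rise of more than 0.7 on the log2 scale. Leaving out a library moved them to between 0.007 and 0.407, -0.069 and 0.432, and 0.153 and 0.648. Acss2, on the opposite strand, overlaps Gss and had 2686 counts over the 6 libraries, and although the study's methods describe a stranded alignment, they give no strand setting for HTSeq, so that whether its counts hold reads of Acss2 is uncertain.

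Gsr (ENSMUSG00000031584.16, chr8:33652523-33698163, plus strand) encodes glutathione reductase, which restores reduced glutathione with NADPH. Its levels were 31.4 and 29.3 CPM in control, 54.7 and 35.2 CPM in dexamethasone, and 39.2 and 42.8 CPM in dexamethasone + EPC-EVs. All 4 libraries with dexamethasone, with or without vesicles, were above both control libraries, and the vesicle libraries lay between the dexamethasone ones. Dexamethasone against control gave a log2 fold change of 0.56 (95% confidence interval -0.06 to 1.18, edgeR adjusted p = 0.492), which was 0.21 without dexamethasone replicate 1 and 0.85 without replicate 2. Vesicles against dexamethasone gave -0.18 (-0.69 to 0.33, edgeR adjusted p = 0.572), which turned to 0.19 without dexamethasone replicate 1. Vesicles against control gave 0.385 (-0.18 to 0.95, edgeR adjusted p = 0.259). With GC content and length corrected for, these were -0.30 and 0.13, with edgeR adjusted p of 0.346 and 0.73.

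**Figure D2:**
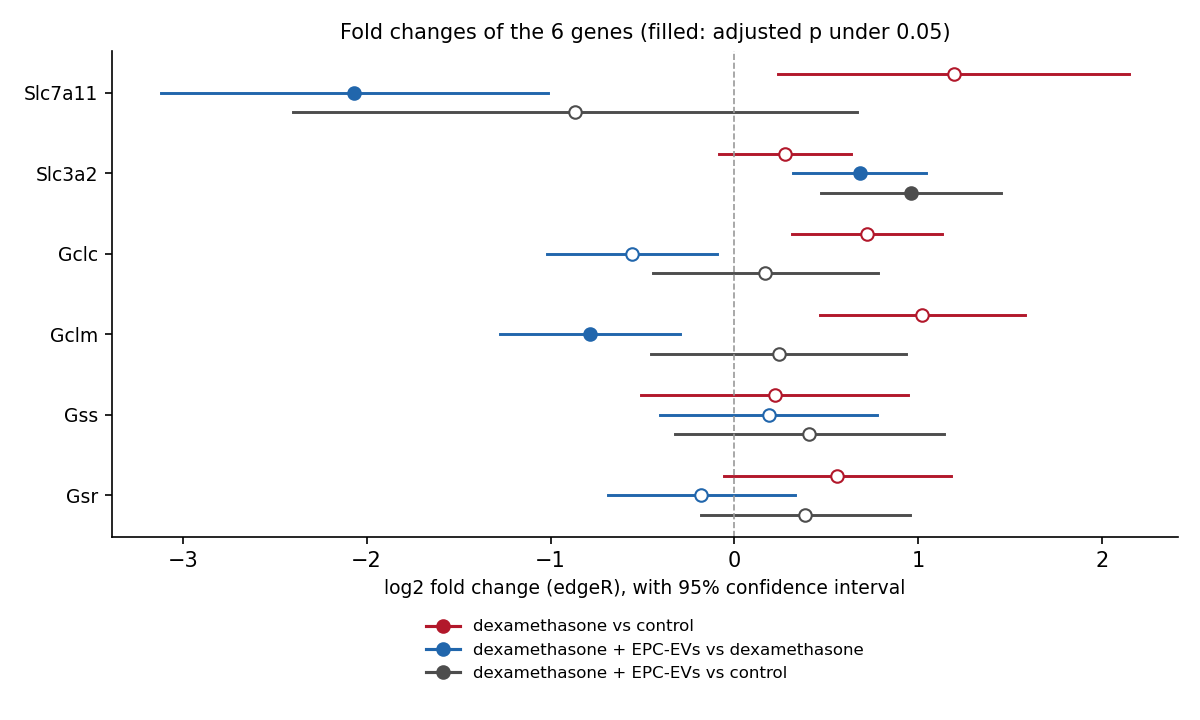
Log2 fold changes from edgeR (horizontal axis) of the 6 genes (vertical axis) in the 3 comparisons, with bars for the 95% confidence intervals and filled points where the adjusted p was under 0.05. With dexamethasone alone every point lies above 0 and none is filled, and with vesicles against dexamethasone Slc7a11 at -2.07 and Slc3a2 at 0.68 lie on opposite sides of 0.

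Levels of different genes were compared per length, as mean deposited FPKM of the 2 libraries of a group. In control the order was Slc3a2 at 41.1 ± 3.62 (SD, n = 2), Gclc at 29.0 ± 3.74, Gsr at 10.9 ± 0.755, Gclm at 3.82 ± 0.410, Gss at 3.12 ± 0.235 and Slc7a11 at 0.608 ± 0.268 FPKM. No neighbours in that order overlapped in control. On these lengths the order was the same in dexamethasone, where Slc3a2 at 52.4 ± 3.91 and Gclc at 50.5 ± 6.04 FPKM overlapped, followed by Gsr at 17.0, Gclm at 8.18, Gss at 3.83 and Slc7a11 at 1.47 FPKM. It was the same again in dexamethasone + EPC-EVs, at 81.3 ± 18.6 FPKM for Slc3a2, 33.2 ± 11.5 for Gclc, 14.5 for Gsr, 4.60 for Gclm, 4.22 for Gss and 0.337 for Slc7a11, and there Gclm and Gss overlapped. The FPKM divide by the summed exons of a gene, 13922 bases for Slc7a11 and 5915 for Gss, against 9223 and 3258 in their longest transcripts. Divided by the longest transcript instead, a choice made after seeing the data, Gss at 5.66 passed Gclm at 4.30 in control and at 7.67 passed 5.18 in dexamethasone + EPC-EVs, but not in dexamethasone, at 6.95 against 9.21. The order of these 2 genes thus depended on the length used, and the other 4 kept their places. In bulk RNA, fewer cells expressing a gene and less of its RNA per cell cannot be told apart.

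The members also differed in sequence composition. The GC content of their longest transcripts was 53.4% for Slc3a2, 50.1% for Gsr, 48.2% for Gss, 47.7% for Gclc, 42.1% for Gclm and 40.7% for Slc7a11. Slc3a2, called higher with vesicles against dexamethasone, thus had the highest GC content, and Slc7a11 and Gclm, called lower, the lowest.

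The patterns over the 6 libraries were compared by the mean absolute difference of centred log2 CPM, among 9222 genes that averaged 10 CPM or more. Slc7a11 and Slc3a2 were far apart at 1.08, and 94.3% of those genes were closer to Slc3a2 than Slc7a11 was, and 72.3% closer to Slc7a11 than Slc3a2 was. The member nearest to Gclm was Gsr at 0.291, with 1.85% of genes closer to Gclm, but 20.9% of genes were closer to Gsr, whose nearest member was Gss at 0.222. Gclc lay at 0.305 from Gclm, with 2.56% of genes closer to Gclm and 5.95% closer to Gclc. The 3 genes most like Slc7a11 were Klhl28 (0.305), Mt2 (0.329) and Ccl5 (0.404), all farther from it than the nearest genes of any other member. Closest to Slc3a2 were Degs1 (0.053), Rundc1 (0.057) and Retreg2 (0.062), and to Gclc they were Cep76 (0.056), Cpne2 (0.079) and Borcs8 (0.121). For Gclm the nearest were Dynlt1c (0.081), Fbxl2 (0.153) and Arhgef3 (0.159), for Gss they were Chaf1a (0.065), Drg1 (0.080) and Slc31a1 (0.081), and for Gsr they were Mvp (0.074), Zfp787 (0.092) and Fam160a2 (0.092).

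Slc7a11 and Gclm, both highest in dexamethasone and both called lower with vesicles, lie on chromosome 3, some distance apart. The 250 bases before their RefSeq starts (GRCm38.p6) are shown because motifs of the antioxidant and amino acid responses are known from genes of this pathway. The letters TGACNNNGC, the core of the antioxidant response element, and TGATGNAA, the core of the amino acid response element, were searched on both strands, and 10.2% and 3.45% of 32851 promoters of the same length hold them. Capitals mark the matches, and positions count back from the start. The promoter of Slc7a11 (chr3:50443614-50443863, minus strand) holds TGATGNAA on the gene's strand from -66 to -59 and on the other strand from -47 to -40. That of Gclm (chr3:122245307-122245556, plus strand) holds TGACNNNGC on the other strand from -134 to -126. The windows of Gss (chr2:155592811-155593060, minus strand) and Slc3a2 (chr19:8713898-8714147, minus strand) hold neither, which says only that these letters are absent there. That of Slc3a2 lies before a RefSeq start within the span of the gene given above, so bases before its outermost start were not searched.
Slc7a11: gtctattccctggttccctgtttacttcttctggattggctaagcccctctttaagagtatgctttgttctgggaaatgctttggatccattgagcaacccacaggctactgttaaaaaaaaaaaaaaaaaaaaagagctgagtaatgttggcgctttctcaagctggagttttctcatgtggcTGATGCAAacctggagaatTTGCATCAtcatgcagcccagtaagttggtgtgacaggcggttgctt
Gclm: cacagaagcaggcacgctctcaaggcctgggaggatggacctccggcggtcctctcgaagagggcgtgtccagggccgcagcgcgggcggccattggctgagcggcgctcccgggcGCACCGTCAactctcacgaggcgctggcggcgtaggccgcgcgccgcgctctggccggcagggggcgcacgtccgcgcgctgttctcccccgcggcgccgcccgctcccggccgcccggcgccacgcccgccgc

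The neighbours of the members in the pathway were taken from 5 lists. In dexamethasone against control, edgeR called 0 of the 2 other light chains of Slc3a2 that passed the filter, 0 of 8 genes that supply cystine, cysteine or glutamate, 0 of 6 of glutathione breakdown, 0 of 25 of glutathione use and transport and 0 of 12 regulators. An unadjusted p under 0.05 was reached by 0, 2, 0, 4 and 2 of them, against 10.9% of all genes, and limma called 0 in each list. DESeq2 also called 0, but a gene that it gave no adjusted p, as for 4 of the members, was counted as not called. The median log2 fold changes of the 5 lists were -0.09, 0.29, -0.09, 0.025 and 0.13, all nearer to 0 than the 0.64 of the members. Values were above 0 for 1 of 2, 5 of 8, 3 of 6, 15 of 25 and 6 of 12 genes. Single genes of the lists exceeded 0.64, such as Ahcy at 1.03 (edgeR adjusted p = 0.279) and Mafg at 0.89 (edgeR adjusted p = 0.291).

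With vesicles against dexamethasone, 2 of the 3 other light chains that passed were called higher and 1 lower, where 20.9% and 18.9% of all genes were, with a median of 0.715. Slc7a6, the light chain of a transporter of basic and neutral amino acids, had 21.2 and 23.1 CPM in control, 23.6 and 22.2 CPM in dexamethasone, and 77.9 and 98.2 CPM in dexamethasone + EPC-EVs. It rose by 1.90 on the log2 scale against dexamethasone (edgeR adjusted p = 2.92e-05), so that this partner of the heavy chain was higher where Slc7a11 was lower. Slc7a5, the light chain of the transporter LAT1 for large neutral amino acids, rose by 0.715 (edgeR adjusted p = 0.00486), a call that ended when GC content and length were corrected for. The light chain called lower was Slc7a8, which lies under the level set for naming and was named after its values were seen, with at most 0.0792 CPM with vesicles and 1.17 and 1.33 CPM in dexamethasone, and DESeq2 and limma did not call it.

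Of the genes that supply the substrates, 5 of 9 were called higher against dexamethasone, where 20.9% of all genes were, with a median of 0.83. Ahcy, which splits S-adenosylhomocysteine to homocysteine, rose by 1.28 on the log2 scale (edgeR adjusted p = 0.000198), and Ctns, which exports cystine from lysosomes, by 1.002 (edgeR adjusted p = 0.0177). Mat2a, which makes S-adenosylmethionine, rose by 0.83 (edgeR adjusted p = 0.00109). Of the genes of breakdown 3 of 9 were called higher and 1 lower, beside 20.9% and 18.9% of all genes, with a median of 1.36. Chac1, which cleaves glutathione in the cytosol, had 11.9 and 3.98 CPM in control, 4.95 and 2.503 CPM in dexamethasone, and 17.9 and 27.2 CPM in dexamethasone + EPC-EVs, and rose by 2.55 (edgeR adjusted p = 0.000575).

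Of the genes of use and transport, 5 of 25 were called higher and 7 lower, near the 20.9% and 18.9% of all genes, with a median of -0.43. Slc25a39, a carrier that brings glutathione into mitochondria, rose by 1.23 (edgeR adjusted p = 0.000103), while its paralog Slc25a40 fell by 0.795 (edgeR adjusted p = 0.0129). The glutathione S-transferases Gstm1 and Gstt1 fell by 1.21 (edgeR adjusted p = 0.000381) and 1.85 (edgeR adjusted p = 0.00199). Other transferases were called higher, Mgst3 by 1.18 (edgeR adjusted p = 0.0241) and Gsto1 by 0.56 (edgeR adjusted p = 0.0119). Gsto1 was named although outside the 6 largest changes. With GC content and length corrected for, 2 of the 3 calls among light chains, 4 of 5 in supply, 2 of 4 in breakdown, 6 of 12 in use and transport and 7 of 8 among regulators were also made. Those of Slc25a39, Slc25a40, Mgst3 and Gsto1 were not.

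Of 12 regulators known to act on the members, 5 were called higher and 3 lower with vesicles against dexamethasone, beside 20.9% and 18.9% of all genes, with a median of 0.22. Nfe2l2, which encodes NRF2, an activator of antioxidant genes that include Gclc, Gclm and Slc7a11, had 369 and 367 CPM in control, 285 and 299 CPM in dexamethasone, and 113 and 119.7 CPM in dexamethasone + EPC-EVs. Keap1, whose product marks NRF2 for degradation, had 17.75 and 17.9 CPM, 23.7 and 26.1 CPM, and 60.8 and 63.9 CPM in the same order. Atf4, an activator of genes of amino acid supply, Slc7a11 and Chac1 among them, had 59.6 and 49.0 CPM, 62.0 and 43.0 CPM, and 192 and 258 CPM. The libraries with vesicles were thus the lowest for Nfe2l2 and the highest for Keap1 and Atf4, with no overlap with either other group. Against dexamethasone alone, 38.5% of all genes had both vesicle libraries above and 34.0% below. Against dexamethasone, Nfe2l2 fell by 1.38 on the log2 scale (edgeR adjusted p = 1.42e-05), Keap1 rose by 1.28 (edgeR adjusted p = 0.000399) and Atf4 rose by 2.05 (edgeR adjusted p = 1.89e-05). Cd44, a surface glycoprotein reported to stabilise xCT, fell by 1.475 (edgeR adjusted p = 1.36e-05). Of the other regulators called, Otub1, Bap1 and Mafg rose by 1.06, 1.05 and 0.96 (edgeR adjusted p = 0.000716, 0.00186 and 0.000613). Bach1, named although outside the 6 largest changes, fell by 0.70 (edgeR adjusted p = 0.0117). The call of Otub1 ended when GC content and length were corrected for. Whether these changes had a part in the members' values was not tested.

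Against control, the vesicle libraries gave 1 of 3 other light chains called, Slc7a6 higher by 1.94 on the log2 scale (edgeR adjusted p = 0.000862), and in supply 3 of 9 higher and 1 lower. In breakdown 2 of 9 were higher, in use and transport 4 of 24 were higher and 4 lower, and among the regulators 5 of 12 were higher and 3 lower, beside 19.1% and 17.2% of all genes. With GC content and length corrected for, 2 of the 4 calls in supply were also made and 1 had the opposite direction, and 3 of 8 in use and transport and 6 of 8 among the regulators were also made. The medians of the 5 lists were 0.50, 0.33, 0.43, -0.33 and 0.35, against 0.021 over all genes and 0.31 for the members. Nfe2l2 fell by 1.71 (edgeR adjusted p = 0.000431) and Atf4 rose by 2.00 (edgeR adjusted p = 0.000617), and Keap1 rose by 1.76 (edgeR adjusted p = 0.00133), a call that ended when GC content and length were corrected for.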

How the data were processed

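The authors aligned the reads to GRCm38, counted them on genes with HTSeq 0.6.1 (per the submitters' processing notes) and deposited counts without normalization, beside an FPKM. For the 6 members the length behind the deposited FPKM equalled the summed exons of GENCODE vM21, the source of coordinates. The deposited transcript table was not used here. Each comparison used the counts of its 4 libraries in edgeR 4.0.16 and R 4.3.3, with TMM, filterByExpr and the robust quasi-likelihood test. Benjamini-Hochberg adjustment covered every tested gene, and an adjusted p under 0.05 made a call. Alternatives were other scalings, DESeq2 1.42.0, other filters, all 6 libraries, a replicate block, leaving out each library, leaving out mitochondrially encoded genes, a loess trend on GC content and length (span 0.4), limma 3.58.1 on log2(FPKM + 1), and the threshold of the study's methods.

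The members and lists were chosen with earlier results of these data known. Named are the 6 members, of each list the genes called in a comparison with a mean of at least 10 CPM (at most 6 with the largest change), of which the text singles out some, and the 3 genes most like each member (log2 CPM with a prior count of 2). Motifs were searched in RefSeq promoters, without Gclc and Gsr.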

Additional observations from a re-analysis of the deposited data

How the results depend on the processing

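In dexamethasone against control, where 0 members were called, DESeq2 called 1 of the 2 members it gave an adjusted p, and edgeR with no filter called 2. Leaving out each library gave 0 to 3. All-gene calls rose too, from 7 to 130 by DESeq2, 248 with no filter, 2200 without control replicate 1 (3 members) and 113 without control replicate 2 (2 members). In dexamethasone + EPC-EVs against dexamethasone, where 3 were called, the GC and length trend left 1, the threshold of the study's methods 1, and leaving out each library 0 to 3. In dexamethasone + EPC-EVs against control, where 1 was called, the threshold of the study's methods left 0 and leaving out each library 0 to 1. Of all genes, 14.2% against dexamethasone and 20.7% against control passed the threshold of the study's methods. Against dexamethasone, 4 members were called, Gclc being added, with other size factors, library totals, DESeq2, no filter and a mean of at least 10 CPM. In that order these called 5423, 5443, 4953, 5684 and 4799 genes in all, against 5397 before. Against control, the GC and length trend gave 1 call as before, but of Gclm in place of Slc3a2. The cause of these moves was not tested.

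Directions turned for 4 fold changes, none of them called, when a library was left out. Log2 fold changes then ran from -0.46 to 0.19 for Gsr and from -0.069 to 0.432 for Gss against dexamethasone, and from -0.235 to 0.504 for Gclc and from -0.02 to 0.48 for Gclm against control. The difference in log2 ratio between vesicles and dexamethasone ran from 2.37 to 3.56 for Slc3a2 to Slc7a11, and from -0.41 to 0.83 for Gclc to Gclm, against 2.96 and 0.21 with all libraries. A lone library was assumed to vary like the other group. Of the fold changes under all alternatives, 72 of 84, 67 of 84 and 78 of 83 in the 3 comparisons kept direction and side of the threshold, and 4 in dexamethasone against control had no adjusted p by DESeq2. Slc7a11 had no value against control under a mean of at least 10 CPM, and scaling moved the median of all genes by at most 0.076.

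The replicate number as a replicate block gave 0, 4 and 1 members called in the 3 comparisons, and 43, 5366 and 4679 genes in all, against 7, 5397 and 4916 without it. The labels do not say that the numbers pair libraries, and deviations of same-numbered libraries had correlations of 0.055, 0.006 and 0.021 over 13465 genes.

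Slc7a11 had the fewest counts of the members in every library, from 29 to 147. The deepest libraries, those with vesicles, held 29 and 94. What depth contributed to its spread was not tested.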
